A study of Homo sapiens with 47 samples.

Results

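PC-3 cells at 2 and 1% O2, the moderate levels of a hypoxia series, were compared with their own normoxia controls in 8 of the 47 small RNA libraries of the study. The 8 were chosen by their labels: PC-3 hypoxia at 2% O2, PC-3 hypoxia at 1% O2 and the normoxia control that belongs to each of these levels, with replicates 1 and 2 in every group. PC-3 is an established human prostate cancer cell line whose origin the labels give as bone metastasis. The study exposed PC-3 and a second prostate cancer line, 22Rv1, to several O2 levels and counted mature microRNAs (miRNAs). All 4 groups were growing cultures in RPMI-1640 with 10% fetal bovine serum. Hypoxia cultures spent 24 h in a hypoxia chamber, and normoxia means 95% air. No gene was altered in any of them. Per the labels the hypoxia treatments were made in duplicate. The labels do not say whether the normoxia replicates were separate cultures, and each p-value therefore reflects variation among these libraries alone, possibly technical.

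Cells short of O2 stabilise hypoxia-inducible factor (HIF), a transcription factor that binds a short DNA element and switches on genes for glycolysis, blood vessel growth and survival. miRNAs are short RNAs that lower the output of messenger RNAs carrying a match to their seed, bases 2 to 8 from the 5' end. A miRNA hairpin is cut into a 5p and a 3p strand (arm), of which usually the more abundant one is kept in the silencing complex, and miR-210, a direct HIF target, is the miRNA most widely reported to rise in hypoxic cells.

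The sequences below are those of miRNAs that carry the results, in RefSeq's annotation of GRCh38.p14, 5' to 3', with the seed in capitals. Of 434 miRNAs tested, 385 were matched to a mature sequence there. The arms of miR-210 and of miR-1247 come first because the former held the calls that rose most and the latter the only call that fell.
hsa-miR-210-3p: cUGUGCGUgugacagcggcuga
hsa-miR-210-5p: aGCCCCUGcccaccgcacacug
hsa-miR-1247-3p: cCCCGGGAacgucgagacuggagc
hsa-miR-1247-5p: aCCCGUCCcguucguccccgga
The 5p arms of the miR-181 family share the seed ACAUUCA but come from different hairpins, of which miR-181d-5p alone was called.
hsa-miR-181d-5p: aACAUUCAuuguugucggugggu
hsa-miR-181c-5p: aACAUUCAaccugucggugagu
hsa-miR-181a-5p: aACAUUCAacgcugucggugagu
hsa-miR-181b-5p: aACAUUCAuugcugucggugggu
The last set holds further arms with some of the lowest adjusted p-values, beside the main arm of miR-222, and miR-30a-5p for the seed of the miR-30 family.
hsa-miR-181a-3p: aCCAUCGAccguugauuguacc
hsa-miR-181c-3p: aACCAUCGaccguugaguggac
hsa-miR-222-5p: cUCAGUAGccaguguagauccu
hsa-miR-222-3p: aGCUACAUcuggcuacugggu
hsa-miR-582-3p: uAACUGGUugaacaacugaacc
hsa-miR-30a-5p: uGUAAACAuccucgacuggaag
The 3p arms of miR-181a and miR-181c share a run of letters toward the 5' end, set a base apart, so that their seeds differ (CCAUCGA and ACCAUCG). Their 3' ends differ.

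The 8 libraries held 1742290 to 4327382 counts and 778 to 862 detected entries, and the 5 most abundant miRNAs, led by miR-21-5p, took 43.0 to 45.9% of each. The depth was uneven within pairs in opposite directions at 2% O2, with 1854859 counts in hypoxia against 4327382 in normoxia for replicate 1 and 3080482 against 1742290 for replicate 2. Markers of the line matched its label: miR-221-3p lay at 12602 to 14267 CPM (counts relative to the library's total) in the normoxia controls against 10.9 to 31.3 CPM in those of 22Rv1, and miR-375, an androgen receptor-linked miRNA, at 138 to 489 against 9485 to 12344 CPM. The epithelial markers miR-141-3p (4.62 to 7.76 CPM) and miR-200c-3p (16.6 to 27.4 CPM) were low, while their relatives miR-200b-3p and miR-200a-3p had means of 5391 and 1641 CPM. The summed level of 8 stromal entries was 20.7 to 37.7 CPM in normoxia and 32.3 to 35.4 CPM in hypoxia, and that of 9 blood or serum entries, mostly miR-486-5p, 258 to 307 and 226 to 308 CPM. Entries that resemble other RNA classes, taken as a sign of RNA quality, summed to 452 to 508 CPM in normoxia and 316 to 469 CPM in hypoxia, and their part in the results was not tested.

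Hypoxia at 2 and 1% O2 was tested as 4 pairs, each a hypoxia and a normoxia library of the same level and replicate number, with edgeR's quasi-likelihood test. The labels do not say whether equal replicate numbers mark a shared day or culture, so the pairing is an assumption. Results without the pair block are given at the end. Calls needed an adjusted p (Benjamini-Hochberg, over all miRNAs tested) below 0.05. Few miRNAs were called: 4 of 434 (0.922%), of which miR-210-3p, miR-30d-5p and miR-181d-5p rose (0.691%) and miR-1247-3p fell (0.23%). The median log2 change of all 434 was 0.01. At an unadjusted p below 0.05 there were 56 miRNAs (12.9%). In 49 (11.3%) all 4 pairs were higher and in 49 (11.3%) all 4 were lower. All hypoxia libraries lay above all normoxia libraries in 20 miRNAs (4.61%) and below them in 14 (3.23%). CPM in the text carry TMM scaling (trimmed mean of M values), changes are log2 of hypoxia over normoxia, and values after ± are SD over 4 libraries.

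miR-210-3p, the guide arm of the HIF target miR-210, stood at 565 and 610 CPM in replicates 1 and 2 of the 2% normoxia controls and at 623 and 498 CPM in those of 1%. In hypoxia it stood at 897 and 918 CPM at 2% O2 and at 988 and 834 CPM at 1% O2. Every hypoxia library was above every normoxia library, and both levels reached about the same height. The mean rose from 574 ± 56.3 to 909 ± 63.6 CPM, a log2 change of 0.67 (SE 0.06, edgeR adjusted p = 0.00242, higher in 4 of 4 pairs). The call held in 9 of 9 other processing settings and in 6 of 8 omissions of a library. In a paired fit the partner of an omitted library no longer informs the hypoxia effect. Both omissions of a pair thus gave nearly the same change and are not independent checks, here and in the counts below. Their adjusted p-values and calls could still differ. For miR-210-3p edgeR's adjusted p was 0.00606 without replicate 2 of the 1% hypoxia group and 0.0179 without its control. Without replicate 1 of the 1% O2 hypoxia group the change was 0.66 with an adjusted p of 0.0834, and without its normoxia partner 0.66 with 0.0879.

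miR-210-5p, the passenger arm, stood at 57.9 and 53.7 CPM in the 2% controls and at 75.02 and 65.3 CPM in the 1% controls, and at 126 and 98.8 CPM at 2% O2 and 91.8 and 82.1 CPM at 1% O2. The groups did not overlap, but the 2% pairs started lower and ended higher than the 1% pairs. Over both levels its log2 change of 0.65 (SE 0.15) missed the threshold (edgeR adjusted p = 0.0961). At 2% O2 alone it rose by 1.01 (SE 0.13, adjusted p = 0.0282), the highest of the calls at that level, against 0.31 (SE 0.13, adjusted p = 0.485) at 1% O2. The difference between levels was -0.70 (SE 0.18) and did not pass the edgeR test either (adjusted p = 0.35). At 2% O2 the call was lost in 6 of 8 omissions of a library, with an adjusted p of up to 0.502.

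**Figure D1:**
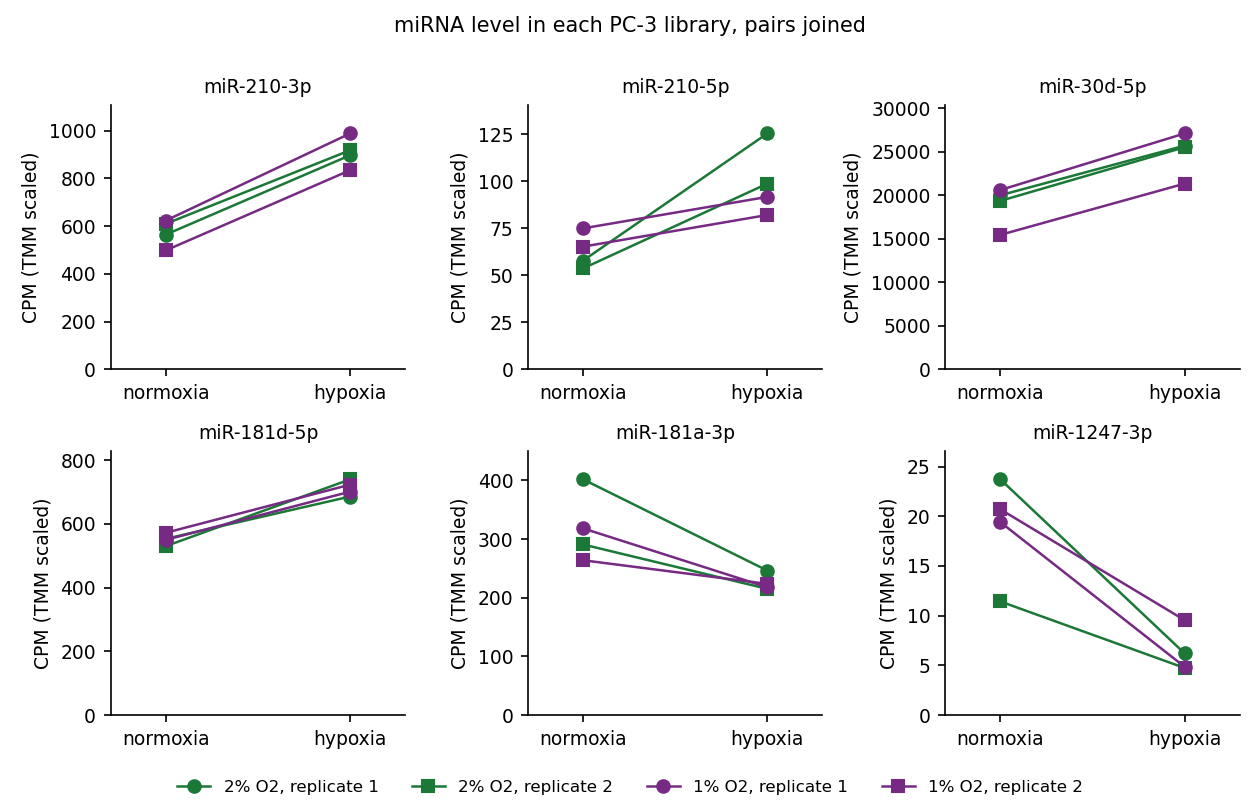
Level of 6 miRNAs in each of the 8 PC-3 libraries, in TMM-scaled CPM on axes that start at 0. Lines join the normoxia and hypoxia library of a pair, colour gives the O2 level and symbol the replicate; miR-210-3p, miR-210-5p, miR-30d-5p and miR-181d-5p are higher and miR-181a-3p and miR-1247-3p lower in hypoxia in 4 of 4 pairs, and miR-210-5p separates by level.

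MIR210 lies at chr11:568089-568198 on the minus strand (GRCh38.p14), in an intron of its host MIR210HG in GENCODE 29. The 300 bases around the start of MIR210HG in RefSeq (chr11:568408-568707, minus strand, 250 before and 50 after the start) hold 1 ACGTG and 1 GCGTG, the core letters of the element that HIF binds, shown in capitals because miR-210 is the member whose host promoter is a known HIF target.
MIR210HG promoter: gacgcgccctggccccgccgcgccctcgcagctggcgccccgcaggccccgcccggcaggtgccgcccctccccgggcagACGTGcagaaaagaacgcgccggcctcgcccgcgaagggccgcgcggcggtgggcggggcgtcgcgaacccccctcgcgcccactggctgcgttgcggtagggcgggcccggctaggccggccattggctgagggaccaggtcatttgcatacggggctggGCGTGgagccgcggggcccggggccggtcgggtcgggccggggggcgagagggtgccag
Both strands were searched, the 2 motifs do not overlap here, and of 35116 promoters of the same length 21.4% hold ACGTG and 36.5% hold GCGTG. No binding was measured in these libraries, so the matches are a description of the letters only.

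miR-30d-5p, an abundant member of the miR-30 family, stood at 20000 and 19353 CPM in the 2% controls and at 20602 and 15449 CPM in the 1% controls. Hypoxia libraries were at 25694 and 25513 CPM at 2% O2 and at 27095 and 21329 CPM at 1% O2. The groups were separate by a narrow margin, since the lowest hypoxia library (21329 CPM) belongs to the pair with the lowest control. Its log2 change was 0.41 (SE 0.05, edgeR adjusted p = 0.014), and the 4 pairs were alike, from 0.36 to 0.47. The call held in 8 of 9 other settings and in 3 of 8 omissions of a library, with a change between 0.39 and 0.42. It was lost without either library of the 1% replicate 1 pair (adjusted p = 0.143 and 0.14) or the 2% replicate 2 pair (0.0955 and 0.0949), or without replicate 2 of the 1% controls (0.0552).

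The miR-30 family has 11 tested entries, arms included, with a median log2 change of 0.06 beside 0.01 for all miRNAs. Of these, 1 was called (0.922% of all 434), 4 were higher in 4 of 4 pairs and 2 were lower in 4 of 4 (11.3% of all 434 in each direction). The 4 that were higher were both arms of miR-30d and miR-30b. miR-30b-5p was at 5075 ± 413 CPM in normoxia and 6304 ± 328 CPM in hypoxia (0.31, edgeR adjusted p = 0.0674), miR-30d-3p at 171 ± 12.6 and 220 ± 19.5 CPM (0.36, adjusted p = 0.0674) and miR-30b-3p showed 0.46 (adjusted p = 0.172). All 3 had groups that did not overlap, as had 4.61% of all 434 in this direction, and none passed the test. miR-30a-5p, miR-30c-5p and miR-30e-5p, which carry the same seed on other hairpins, lay between -0.04 and 0.06. Among entries with this seed, those of miR-30d and miR-30b were higher in every pair, and the difference between hairpins was not tested.

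miR-181d-5p is a less abundant member of the miR-181 family, which is known for roles in lymphocyte development and stress signalling. It stood at 553 and 530 CPM in the 2% controls and at 550 and 572 CPM in the 1% controls, and at 686 and 740 CPM at 2% O2 and 701 and 723 CPM at 1% O2. The libraries of each group lay close together and the groups were well apart. The mean rose from 552 ± 17.2 to 712 ± 23.7 CPM, a log2 change of 0.37 (SE 0.06, edgeR adjusted p = 0.0459). This call was at the edge of the threshold: it held in 4 of 9 other settings and in none of 8 omissions, where the adjusted p lay between 0.0641 and 0.299 and the change between 0.31 and 0.39.

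MIR181C (chr19:13874699-13874808, plus strand) and MIR181D (chr19:13874875-13875011, plus strand) lie side by side in an intron of NANOS3 (GRCh38.p14, GENCODE 29). Both entries of miR-181c were higher in 4 of 4 pairs, although miR-181c-5p was so in 3 of 4 when all libraries were scaled together. miR-181c-3p stood at 365 ± 6.91 CPM in normoxia and 458 ± 24.9 CPM in hypoxia (0.33, edgeR adjusted p = 0.0674), with no overlap, and miR-181c-5p showed 0.21 (adjusted p = 0.27). miR-181a-5p and miR-181b-5p, encoded on chromosomes 1 and 9, showed 0.08 and 0.05 and were higher in 2 of 4 pairs each. Among the 8 tested entries of the family 1 was called (0.922% of all 434), and their median log2 change was 0.07 beside 0.01 for all. Together the 4 miRNAs with the seed ACAUUCA summed to 15755 CPM in normoxia and 16948 CPM in hypoxia, most of it miR-181a-5p.

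miR-181a-3p, the passenger arm of the MIR181A1 hairpin (chr1:198859044-198859153, minus strand, in an intron of MIR181A1HG), was lower in 4 of 4 pairs. It stood at 402 and 291 CPM in the 2% controls and at 318 and 264 CPM in the 1% controls, and at 247 and 215 CPM at 2% O2 and 218 and 224 CPM at 1% O2. Every hypoxia library was below every control, and the controls were spread more widely than the hypoxia libraries. The log2 change of -0.48 (SE 0.09) just missed the threshold (edgeR adjusted p = 0.054).

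miR-1247-3p was the only miRNA called lower, and it was a rare one. It is outside the naming rule because its mean was 12.6 CPM, under the minimum of 20 CPM, so it was chosen after its values were seen. It stood at 23.7 and 11.4 CPM in the 2% controls and at 19.4 and 20.7 CPM in the 1% controls, and at 6.22 and 4.75 CPM at 2% O2 and 4.87 and 9.56 CPM at 1% O2. These rest on 102, 20, 67 and 58 counts in normoxia and 11, 15, 13 and 22 counts in hypoxia, in the same order. The groups did not overlap, but the highest hypoxia library came close to the lowest control. Its log2 change was -1.56 (SE 0.21, edgeR adjusted p = 0.0142), from 18.8 ± 5.24 to 6.35 ± 2.24 CPM. The call held in 8 of 8 other settings and in 4 of 8 omissions. It was lost without any 1 of the 4 replicate 1 libraries, that is without either replicate 1 pair. The changes were then -1.42 to -1.45, with edgeR adjusted p-values of 0.0641 to 0.145.

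MIR1247 (chr14:101560287-101560422, minus strand, GRCh38.p14) overlaps an exon of DIO3OS, a noncoding gene of an imprinted region. Its main arm, miR-1247-5p, is the more abundant, at a mean of 97.1 CPM. It showed a log2 change of -0.19 and was not called, so the 3p arm lay 1.37 below the 5p arm on the log2 scale, and lower in 4 of 4 pairs.

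**Figure D2:**
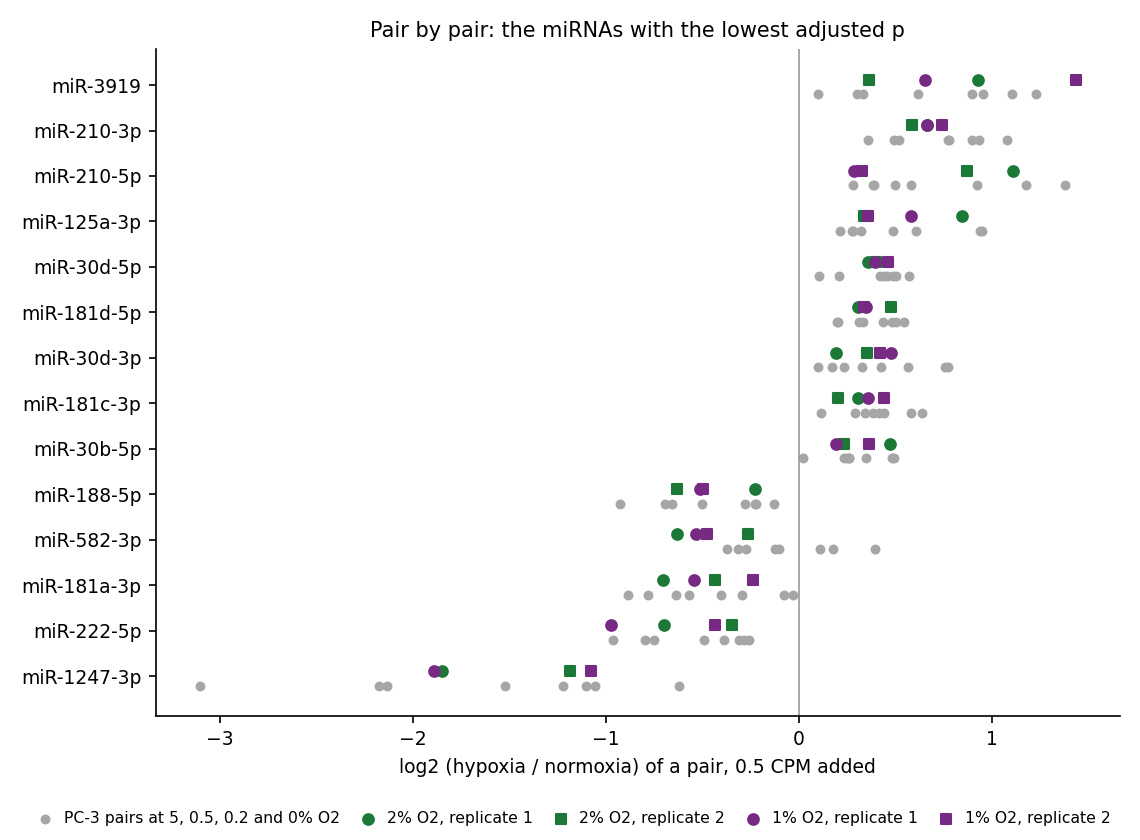
Log2 ratio of hypoxia to normoxia in each pair for the 14 miRNAs with an adjusted p below 0.1 over both levels, 0.5 CPM added. Coloured symbols are the 4 pairs at 2 and 1% O2 and grey points the 8 PC-3 pairs at the other O2 levels. Every coloured symbol of a miRNA is on one side of 0, which follows in part from the choice of miRNAs on these pairs. The grey points follow except for miR-582-3p.

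At an adjusted p below 0.1 there were 14 miRNAs, 9 higher and 5 lower, each with the same sign in 4 of 4 pairs. Of all 434, 11.3% were higher and 11.3% lower in 4 of 4. The 14 were chosen by p on the same pairs, so their shared sign follows in part from that choice. Beside those above they were miR-582-3p, miR-222-5p, miR-125a-3p, miR-3919 and miR-188-5p, of which the last 3 were chosen after their values were seen. miR-582-3p, from an intron of PDE4D, was at 128 ± 11.5 CPM in normoxia and 92.3 ± 16.5 CPM in hypoxia, with overlapping groups (-0.48, edgeR adjusted p = 0.0553). Its other arm, miR-582-5p, showed -0.48 and was not called (adjusted p = 0.389). miR-125a-3p was at 38.4 ± 4.19 and 55.8 ± 7.29 CPM (0.54, adjusted p = 0.0909), miR-3919 at 15.98 ± 4.53 and 28.7 ± 5.02 CPM (0.86, adjusted p = 0.0909) and miR-188-5p at 61.9 ± 8.41 and 44.6 ± 4.84 CPM (-0.47, adjusted p = 0.0909). Those 3 had no overlap between groups, as had 4.61% of all 434 above and 3.23% below the controls. This too follows in part from the choice by p.

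The 8 libraries leave 3 residual degrees of freedom. When the same contrast was fitted on all 24 PC-3 libraries, with 1 hypoxia effect per level and the spread shared over 12 pairs, 31 of 463 miRNAs were called (6.7%), 17 higher (3.67%) and 14 lower (3.02%), and all 14 above were among them. Of the 31, 29 had an unadjusted p below 0.05 in edgeR's test on the 8 libraries, as had 12.9% of all 434. In 23 the sign was the same in 4 of 4 pairs, where 11.3% of all 434 were higher and 11.3% lower in all. The effects in this fit come from the same 8 libraries and only the spread is shared. The overlap therefore follows from the shared data and is no second test. Those newly called include miR-205-5p (0.28), a basal epithelial miRNA, miR-192-5p (0.24), a p53-regulated one, miR-20a-5p (-0.27), of the miR-17-92 cluster, miR-27b-5p (-0.50) and miR-221-5p (-0.28), with adjusted p-values of 0.00153, 0.00499, 0.00821, 0.00499 and 0.021 in edgeR's test.

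The pairs at the other PC-3 levels (5, 0.5, 0.2 and 0% O2) have their own controls and share no library with the 8 here. miR-210-3p was higher in 8 of 8 of them (log2 ratios of 0.36 to 1.08), as were miR-30d-5p (0.11 to 0.57) and miR-181d-5p (0.20 to 0.55). miR-1247-3p was lower in 8 of 8 (-3.11 to -0.62), as were miR-181a-3p (-0.89 to -0.03), miR-222-5p and miR-188-5p. miR-582-3p did not keep its direction: 3 of 8 were higher, with a median of -0.11.

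The effects at 2% and at 1% O2 were then taken apart in 1 fit with both levels. At 2% O2 3 miRNAs were called, all higher (0.691%): miR-210-5p, miR-210-3p (0.63, SE 0.09) and miR-30d-5p (0.38, SE 0.06), each with an edgeR adjusted p of 0.0282. At 1% O2 2 were called (0.461%), miR-210-3p (0.70, SE 0.09) and miR-30d-5p (0.43, SE 0.06), each with an adjusted p of 0.0192. All 5 calls were lost without any 1 of the 4 libraries of the 1% pairs, with adjusted p-values of 0.365 to 0.502 at 2% and 0.848 to 0.994 at 1% O2. Those at 2% were also lost without replicate 1 of the 2% controls (0.104 to 0.264), and the changes stayed between 0.33 and 1.09 in all 8 omissions. At an unadjusted p below 0.05 there were 75 (17.3%) at 2% and 40 (9.22%) at 1% O2. No miRNA was called lower at either level. miR-210-3p differed between levels by 0.07 (SE 0.13) and miR-30d-5p by 0.05 (SE 0.08), neither past the test.

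No miRNA was called for the difference of the 1% and the 2% effect in edgeR's test, with 50 (11.5%) at an unadjusted p below 0.05 and a smallest adjusted p of 0.35. Over the 434 miRNAs the effects at the 2 levels had a Pearson r of 0.13 and a Spearman rho of 0.07 (across miRNAs, which are not independent replicates), and 224 had the same sign. Among the 287 with at least 20 CPM r was 0.24, rho 0.16 and 158 had the same sign. The calls over both levels were picked on these same pairs, so their likeness between levels follows from that choice. The authors' scaling factors moved the median of this difference by -0.12, and 4 miRNAs, all lower, were then called.

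**Figure D3:**
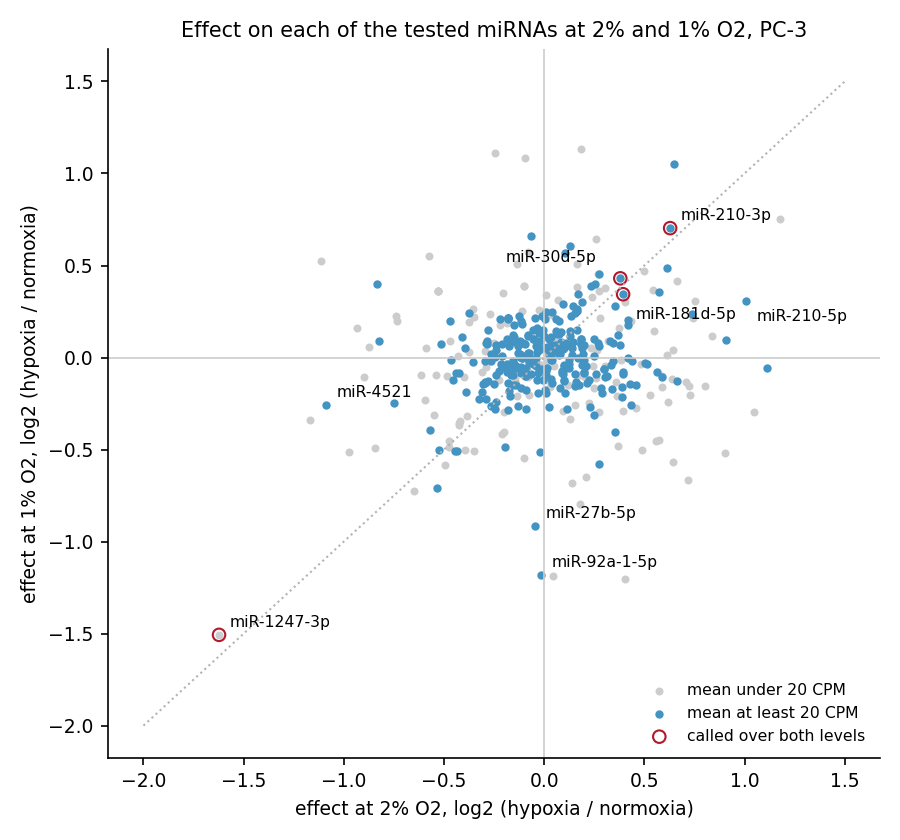
Log2 effect of hypoxia at 2% O2 (horizontal) and at 1% O2 (vertical) for the 434 tested miRNAs; blue points have a mean of at least 20 CPM, and the dotted line marks equal effects. Most points form a round cloud at 0 (r = 0.13). Red rings mark miR-210-3p, miR-30d-5p, miR-181d-5p and miR-1247-3p, whose place near the line follows from their being called over both levels.

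Several single miRNAs stood out at one level only, without a call for the difference. miR-1908-5p, chosen after its values were seen, had a log2 change of 1.11 (SE 0.19, edgeR adjusted p = 0.0669) at 2% O2 and -0.06 (SE 0.18) at 1% O2. Its 2% controls were at 29.98 and 17.1 CPM and its 1% controls at 44.6 and 33.5 CPM, so the control sets differed too. miR-27b-5p, a passenger arm, stood at 113 and 79.9 CPM in the 1% controls and 49.4 and 52.1 CPM at 1% O2 (-0.92, SE 0.18, adjusted p = 0.107), but at 93.2 and 74.9 and at 103 and 61.7 CPM in the 2% pairs (-0.05). miR-92a-1-5p, the passenger arm of a miR-17-92 hairpin, was at 34.5 and 36.04 CPM in the 1% controls and 16.1 and 14.8 CPM at 1% O2 (-1.18, SE 0.24, adjusted p = 0.107), with -0.02 at 2% O2. Among the most abundant miRNAs, miR-182-5p went by 0.16 at 2% and by -0.15 at 1% O2, and miR-191-5p by -0.16 and 0.12. The differences of -0.31 (SE 0.07) and 0.28 (SE 0.08) had the smallest p per direction among miRNAs that count toward the naming rule, with an adjusted p of 0.35 each.

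The normoxia controls of 1% and 2% O2, which bear the same treatment label, gave a check of the spread without hypoxia. In a fit without a block, none of 434 miRNAs was called between them by edgeR (smallest adjusted p = 0.98). There 12 (2.76%) had an unadjusted p below 0.05. With a replicate block none was called either (smallest adjusted p = 0.773), and 25 had an unadjusted p below 0.05. The hypoxia effect was fitted with pairs, so its share of 12.9% is not on the same footing as the 2.76%. With 2 libraries per set, small differences were not detectable.

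The 2 arms of a hairpin come from 1 precursor and give a second reading of it where neither arm is also made from another locus. Both arms were tested for 119 hairpins. In some of these the more abundant arm is also made from other loci, as are let-7a-5p, miR-7-5p and miR-128-3p. Such hairpins were kept in the counts that follow. The more abundant arm had a median log2 change of 0.01 and the less abundant arm of -0.05. The less abundant arm lay below its partner in 80 of 119, lower in 4 of 4 pairs in 20 and higher in 4 of 4 pairs in 6. Where the less abundant arm had at least 20 CPM this was 50 of 76, with 11 and 6. These shares were described and not tested, and low counts of the minor arm enter the same numbers.

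miR-222 gave the clearest case at a level above 20 CPM. Its main arm miR-222-3p, an abundant miRNA that targets the cell cycle inhibitor CDKN1B, had a mean of 24355 CPM and a log2 change of 0.01. Its minor arm miR-222-5p stood at 72.8 and 49.7 CPM in the 2% controls and 66.6 and 64.2 CPM in the 1% controls, and at 44.7 and 38.9 CPM at 2% O2 and 33.7 and 47.4 CPM at 1% O2. No hypoxia library reached a control, and the log2 change was -0.62 (SE 0.13, edgeR adjusted p = 0.0674). The arm difference was -0.64, between -1.08 and -0.28 in the 4 pairs. For the MIR181A1 hairpin it was -0.57, between -1.07 and -0.21. miR-181a-5p is also made from MIR181A2, so its level does not come from that hairpin alone. For miR-30d the arms showed 0.41 and 0.36, with an arm difference of -0.17 to 0.08 in the 4 pairs. For miR-210 they showed 0.67 and 0.65 over both levels, but the 5p arm minus the 3p arm ran from -0.41 to 0.44 in single pairs, 2 each way. At 2% O2 the 3p arm showed 0.63 and the 5p arm 1.01, and at 1% O2 0.70 and 0.31.

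**Figure D4:**
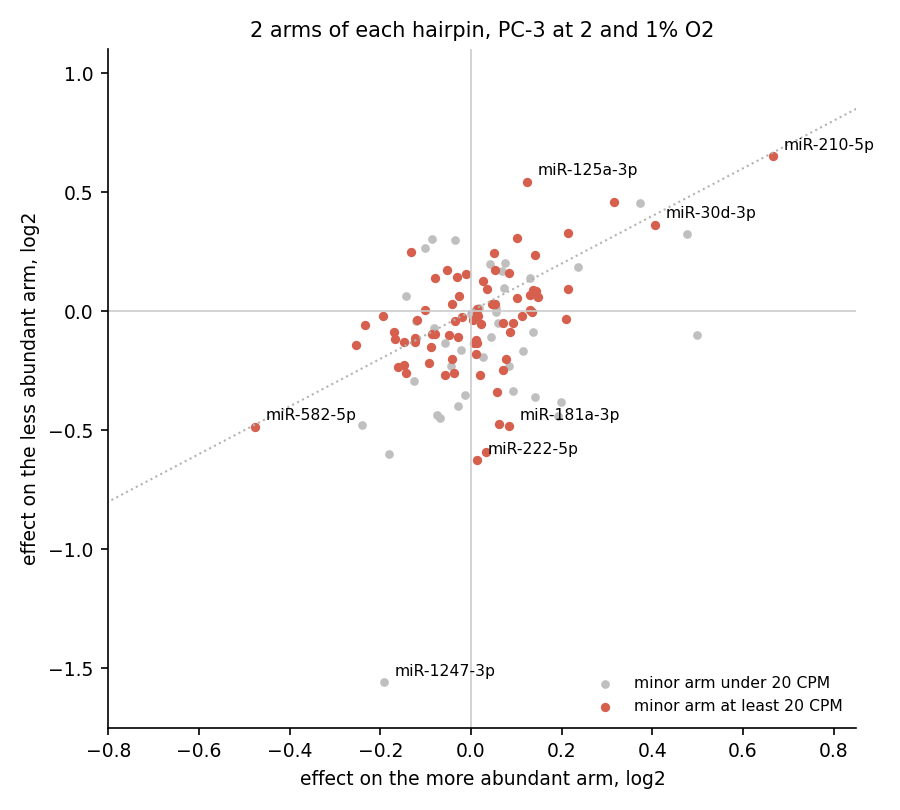
Log2 effect of hypoxia on the more abundant arm (horizontal) and the less abundant arm (vertical) of 119 hairpins, pooled over 2 and 1% O2; red points have a minor arm of at least 20 CPM and the dotted line marks equal effects. The pooled values of miR-210 and miR-30d lie near the line, while miR-1247-3p, miR-222-5p and miR-181a-3p lie below it.

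The literature's hypoxia-induced miRNAs, listed as hairpins with both arms, gave 39 tested entries of 47. Of these 2 were called higher (miR-210-3p and miR-30d-5p), none lower, and 37 were not called. Of all 434, 3 (0.691%) were called higher and 1 (0.23%) lower. In the fit on 24 libraries 9 of 40 were called higher and 1 lower, beside 17 and 14 of all 463. Their median log2 change was 0.08 beside 0.01 for all tested. In 13 all 4 pairs were higher and in 5 all 4 were lower, where 11.3% of all miRNAs fell in each class. miR-26b-3p (0.31, edgeR adjusted p = 0.134) and miR-192-5p (0.26, adjusted p = 0.114) had groups that did not overlap, as had 4.61% of all 434 in this direction. Widely cited members such as miR-23a-3p (0.01), miR-107 (-0.01), miR-103a-3p (-0.04), miR-26a-5p (0.08), miR-27a-3p (0.14) and miR-24-3p (0.17) were not called. miR-424-5p, reported to stabilise HIF in endothelium, showed -0.17.

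Lists with no called entry were the 12 tested entries reported to target HIF1A (median -0.05), the 20 of miR-17-92 and its paralogues (-0.10), the 9 of miR-23/27/24 (0.06), the 19 of let-7 and miR-98 (0.01) and the 12 of miR-15/16 (0.01). The same held for the 7 of the miR-200 family (0.01), the 7 of miR-29 (-0.05), the 4 p53-regulated entries (0.22), the 21 androgen receptor-linked (-0.02) and the 18 mesenchymal or basal-associated ones (-0.05). The 5 tested members with the seed AAAGUGC (miR-17-5p, miR-20a-5p, miR-93-5p, miR-106a-5p and miR-106b-5p), which drive proliferation in many tumours, ran from -0.43 to -0.05, none called. Of them 2 were lower in 4 of 4 pairs, as were 11.3% of all 434. miR-17-5p was among these 2 (-0.12, edgeR adjusted p = 0.481), its groups not overlapping, as in 3.23% of all 434 in this direction. The 9 let-7 and miR-98 guides, which carry the seed GAGGUAG, lay between 0.01 and 0.13. The 2 tested stromal entries had a median of 0.03, the 3 blood entries of -0.10, the 9 neuronal entries of 0.01 and the 5 entries resembling other RNA classes of -0.20. None was called. miR-150-5p, a lymphocyte miRNA, lay at 1.71 to 3.21 CPM in normoxia and 3.48 to 5.70 CPM in hypoxia. It was higher in 4 of 4 pairs here (edgeR adjusted p = 0.27), as were 11.3% of all 434. Every normoxia library was under the 5 CPM of the filter, so miR-150-5p was tested only through hypoxia libraries, where it is higher. Its direction here therefore gives no support for a rise. At the other PC-3 levels it was lower in 8 of 8 pairs, also as a rare miRNA.

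Against the lower levels of 0.5 and 0.2% O2 in PC-3, which have their own controls, no miRNA of 457 differed in its effect by edgeR's test (20, or 4.38%, at an unadjusted p below 0.05, smallest adjusted p = 0.172). miR-210-3p showed 0.66 at 2 and 1% O2 and 0.92 at 0.5 and 0.2% O2 in that 16-library fit, a difference of 0.26 (SE 0.09, adjusted p = 0.953). Side by side, miR-30d-5p showed 0.40 and 0.49, miR-181d-5p 0.37 and 0.42, and miR-1247-3p -1.56 and -1.54. The smallest p per direction belonged to miR-29b-1-5p, with -0.05 at the moderate and -0.60 at the lower levels (difference -0.55, SE 0.13, adjusted p = 0.172), and to miR-27a-5p, with 0.08 and 0.59 (difference 0.50, SE 0.14, adjusted p = 0.539). Both are passenger arms.

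Against 22Rv1 at the same levels, 10 of 561 miRNAs differed in their effect by edgeR's test (1.78%), 8 with the higher change in 22Rv1 (1.43%) and 2 with the lower (0.357%). miR-210 rose more in 22Rv1: miR-210-3p changed by 1.08 there and by 0.64 in PC-3 (difference 0.44, SE 0.11, adjusted p = 0.0399), and miR-210-5p by 1.58 and 0.62 (difference 0.96, SE 0.18, adjusted p = 0.00456). In the scale of that fit miR-210-3p went from 1264 ± 41.8 to 2675 ± 178 CPM in 22Rv1 and from 655 ± 43.2 to 1024 ± 95.2 CPM in PC-3. The miR-210-3p difference was lost in 5 of 8 other settings (adjusted p of up to 0.199). It was also lost in 8 of 8 omissions of a PC-3 library (edgeR adjusted p of up to 0.129).

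miR-181a-3p moved in opposite directions. In 22Rv1 it is rare, at 19.1 and 12.2 CPM in the 2% controls and 26.2 and 16.5 CPM in the 1% controls, against 29.5 and 23.0 CPM at 2% O2 and 39.9 and 24.4 CPM at 1% O2. It was thus higher in 4 of 4 pairs of 22Rv1 (0.66) and lower in 4 of 4 pairs of PC-3 (-0.51). The difference of 1.17 (SE 0.18, edgeR adjusted p = 0.000342) held in 8 of 8 other settings and in 8 of 8 omissions of a PC-3 library. No 22Rv1 library was left out, so its dependence on single 22Rv1 libraries was not tested. miR-582-3p went by -0.50 in PC-3 and by 0.31 in 22Rv1 (difference 0.80, SE 0.18, edgeR adjusted p = 0.0161). This call held in 5 of 8 settings and 4 of 8 omissions of a PC-3 library. miR-582-3p was higher in 4 of 4 pairs of 22Rv1 in the scale of that fit and in 3 of 4 when all libraries were scaled together.

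The 2 miRNAs with the lower change in 22Rv1 were miR-7974 (0.01 in PC-3 and -0.59 in 22Rv1) and miR-7-5p (0.07 and -0.44), a miRNA that dampens growth factor signalling. The other calls were outside the naming rule and were chosen after their values were seen: miR-200b-3p (-0.10 and 0.48), miR-152-3p (0.04 and 0.62), miR-126-5p (-0.01 and 0.58) and the rare miR-4671-3p (0.12 and 2.05, at a mean of 5.10 CPM). Their edgeR adjusted p-values were 0.0148, 0.0377, 0.0399 and 0.049 in that order. The calls held in 5 of 8, 4 of 8, 4 of 8 and 2 of 7 other settings. In omissions of a PC-3 library they held in 5 of 8, 3 of 8, 0 of 8 and 0 of 8. miR-200b-3p, an epithelial miRNA, lay at 6338 ± 427 CPM in PC-3 normoxia and at 49.0 ± 8.10 CPM in 22Rv1 normoxia. This order goes against that of its relatives miR-141-3p and miR-200c-3p, which were low in PC-3 and abundant in 22Rv1.

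**Figure D5:**
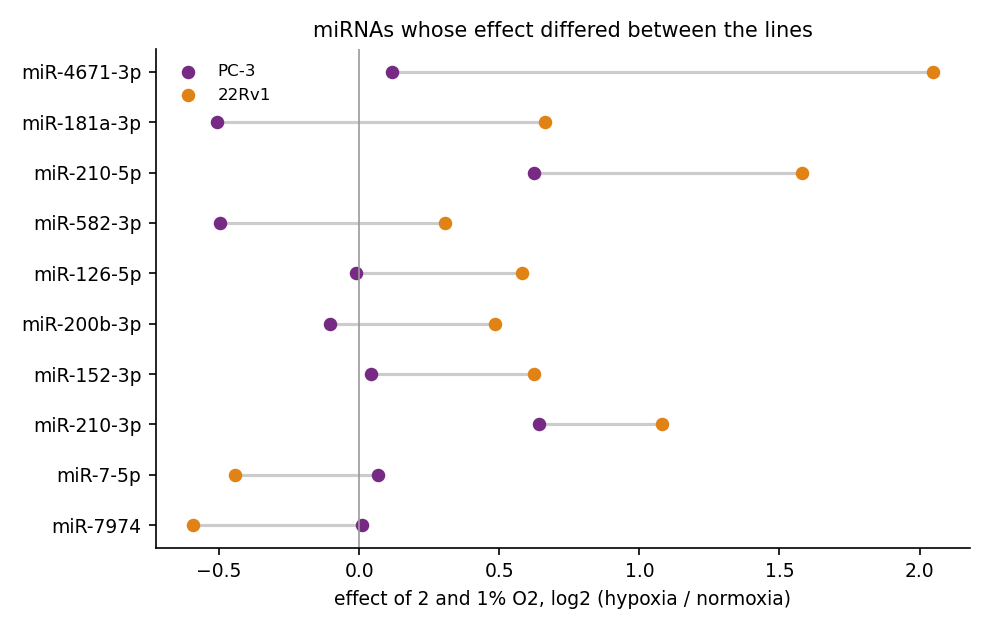
Log2 effect of 2 and 1% O2 in PC-3 (purple) and 22Rv1 (orange) for the 10 miRNAs whose effect differed between the lines by edgeR's test. miR-181a-3p and miR-582-3p lie on opposite sides of 0, and both arms of miR-210 lie further to the right in 22Rv1.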

How the data were processed

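Per the labels' protocols, RNA came from a miRNeasy extraction, TruSeq Small RNA libraries were made from it, and a gel cut kept 140 to 160 bp. The authors deposited counts for 1006 mature miRNA entries in 47 libraries, used here, and a CPM table scaled by TMM, which equals the counts times 1 constant per library (relative difference of at most 2.56e-09) and served as an alternative scaling. A further column of the deposited count table, a number per entry, was not used. Per the submitters' processing notes, FastQC and hg19 were used; aligner and counter: not given in the sources used here.

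Counts were fitted with edgeR 4.0.16 in R 4.3.3: a filter of 5 CPM or more in 2 or more libraries of the fit, TMM scaling, robust quasi-likelihood test, two-sided, Benjamini-Hochberg adjustment over all tested miRNAs, and the pair (O2 level and replicate number) as block. The contrast of the control sets had no block. Replicate differences in hypoxia and normoxia correlated with 0.34 at 2% O2 and 0.48 at 1% O2 over 434 miRNAs. Replicates differed by a chi-square of 32.4 to 60.9 per degree of freedom, so none is a repeat deposit. The fit was also run on simulated counts with planted effects and no differences between pairs. That setting differs from these data, so nothing about error rates here is drawn from it. DESeq2 1.42.0, other scalings and filters, no block, a fit on 24 libraries and each library left out were alternatives.

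miRNAs were named by rule: calls over both levels whose mean reached 20 CPM and whose 4 pairs had one sign, up to 3 per direction in other contrasts (the 1 with the smallest p where none was called), both arms of miR-210, up to 3 per list by p, the 5 most abundant, and the other arm of each. Further list members and calls of the 24-library fit were named after their values were seen. The members, the rule and the 17 lists were chosen with earlier results of these data known. Lists hold hairpins, so both arms count, and they share members. Sequences are from RefSeq (GRCh38.p14) and host genes from GENCODE 29. Of the tested miRNAs, 10 have counts identical to another entry. Precision is limited by counting error for rare miRNAs and by 4 pairs for all.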

Additional observations from a re-analysis of the deposited data

Results flagged for a closer look

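Of the effects in PC-3 at 2 and 1% O2, 5 were picked out because the effect in 22Rv1 at the same levels differed by a test of the difference itself (edgeR's quasi-likelihood test, Benjamini-Hochberg adjusted p). For miR-181a-3p the 22Rv1 effect minus the PC-3 effect was 1.17 on the log2 scale (adjusted p = 0.000342), with 0 of 4 PC-3 pairs and 4 of 4 22Rv1 pairs higher. For miR-210-5p it was 0.96 (adjusted p = 0.00456), with 4 of 4 pairs higher in both lines. The call was lost without replicate 1 of PC-3 at 1% O2 (adjusted p = 0.0645) or its control. For miR-582-3p it was 0.80 (adjusted p = 0.0161), with 0 of 4 PC-3 pairs and 4 of 4 22Rv1 pairs higher. With a PC-3 library left out its adjusted p reached 0.0879, and no 22Rv1 library was left out for any of the 5. For miR-7974 it was -0.60 (adjusted p = 0.0131), with 2 of 4 PC-3 pairs and 0 of 4 22Rv1 pairs higher. For miR-7-5p it was -0.51 (adjusted p = 0.0155), with 3 of 4 PC-3 pairs and 0 of 4 22Rv1 pairs higher. Omissions of a PC-3 library reached adjusted p-values of 0.0645 for miR-7974 and 0.0656 for miR-7-5p.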

How the results depend on the processing

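Over both levels, 4 miRNAs were called. This count was 8 (4 higher, 4 lower) with the authors' TMM factors, 10 with DESeq2's test, 23 without a filter on low counts, 2 without the replicate block and 31 in the fit on 24 libraries, against 3 higher and 1 lower as reported. At 2% O2 the 3 calls became 12, 10, 30, 0 and 29 under the same settings in that order. At 1% O2 the 2 calls became 5 with library size alone, 7 (2 higher, 5 lower) with the authors' factors, 15 without a filter, 0 without the replicate block and 15 in the fit on 24 libraries. The difference of 1 and 2% O2, with 0 calls, had 4 with the authors' factors, 9 without a filter and 7 in the fit on 24 libraries. The line difference, with 10 calls, had 4 with the authors' factors, 6 without a filter, 3 with a filter of 20 CPM in 4 libraries and 2 without the replicate block.

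Leaving out 1 PC-3 library gave 0 to 6 calls over both levels, 0 to 45 at 2% O2, 0 to 29 at 1% O2, 0 to 15 for their difference, 0 for the lower against the moderate levels, 1 to 9 for the line difference and 0 for the control sets. Over both levels the 0 arose without replicate 1 of PC-3 at 1% O2 or its control, and the 6 without replicate 2 of the 1% hypoxia group. At 2% O2 the 45 arose without replicate 2 of its controls, and at 1% O2 the 29 without replicate 1 of the 2% hypoxia group. The cause was not tested. No value of a called miRNA changed sign in any setting. miR-1247-3p rests on 11 to 102 counts per library.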
